A study of Mus musculus with 131 samples.

Results

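The 10 genes described here (Gata6, Gata4, Sox17, Sox7, Foxa2, Pdgfra, Dab2, Lama1, Lamb1 and Col4a1) are known markers of primitive endoderm, and they were taken by symbol from a table of 13927 genes measured in single cells of mouse blastocysts. All 10 had a row in the table. The expression data were full-length cDNA libraries of 40 GFP cells and 55 RFP cells, each picked by micromanipulation from C57BL/6J blastocysts at E4.0. The GFP cells carried an Actin-GFP transgene and the RFP cells an Actin-RFP transgene. The series describes the blastocysts as reconstructed, and its E7.5 embryos as made by injecting Actin-RFP2 embryonic stem cells (ESCs) into Actin-GFP host embryos. The labels do not say which embryo a cell came from, how many embryos were used or how many clones the ESC line holds. Cells of the same group could therefore share an embryo, each group was treated as 1 sample, and no test between the groups was possible. DNA methylation near the same genes was read from 3 bisulfite libraries of C57BL/6J cells, 1 library each: wild-type mouse embryonic fibroblasts (MEF) at passage 2, ESCs with the Gjb2 35delG change at passage 7, and Actin-RFP2 ESCs at passage 10. Cell type, genotype and passage differ together among these libraries and cannot be told apart.

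Primitive endoderm is the layer of the late blastocyst that lies between the epiblast and the blastocyst cavity and later gives rise to parietal and visceral endoderm of the yolk sacs. Inner cells that receive FGF signal through Fgfr1 and Fgfr2 keep Gata6, a zinc-finger transcription factor, and switch on Pdgfra, Sox17, Gata4 and Sox7 in sequence, while epiblast cells keep Nanog and secrete Fgf4. Maturing primitive endoderm makes Dab2, an endocytic adaptor needed for its apical polarity, and lays down a basement membrane of laminin and type IV collagen. Gata6, Dab2 and several of the matrix genes are also known in trophectoderm, the outer layer that forms the placenta, so a cell is assigned to primitive endoderm by several of these genes together.

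The total per cell was 1996187 to 8315062 reads in the GFP cells and 518064 to 9562072 reads in the RFP cells. Levels are given as CPM, the reads of a gene per 1000000 reads of that cell, and 10 CPM is used as the level at which a gene counts as present in a cell. The 2 transgene groups differed in the layer markers: 14 of 14 measured trophectoderm genes were at least 2-fold lower in RFP cells and 11 of 12 epiblast genes at least 2-fold higher, beside 21.9% and 25% of all genes. Of the fibroblast genes, 5 of 10 were measured, with summed levels of at most 7.57 CPM in a GFP cell and 74.2 CPM in an RFP cell. Of the oocyte genes, 4 of 8 were measured, and their summed level had a median of 31.4 CPM over GFP cells and 5.18 CPM over RFP cells, of which Ooep made the GFP part almost alone, at 10 CPM or more in 26 GFP cells and 26 RFP cells. GFP cell 27 stood apart from the other GFP cells, with 14.9% mitochondrially encoded reads, 1 of 14 trophectoderm genes present and 1674 CPM of the epiblast gene Sox2. RFP cells 6, 14, 44 and 41 had 62, 21.2, 16.3 and 10.8% mitochondrially encoded reads, and without these 4 and GFP cell 27 the count of genes lower in RFP cells given below was also 9 of 10. RFP cell 44 held all RFP reads of Foxa2 and Lama1 and most of those of Col4a1. RFP cell 55 stood apart from the other RFP cells, as described below. No pair of cells held identical values.

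**Figure D1:**
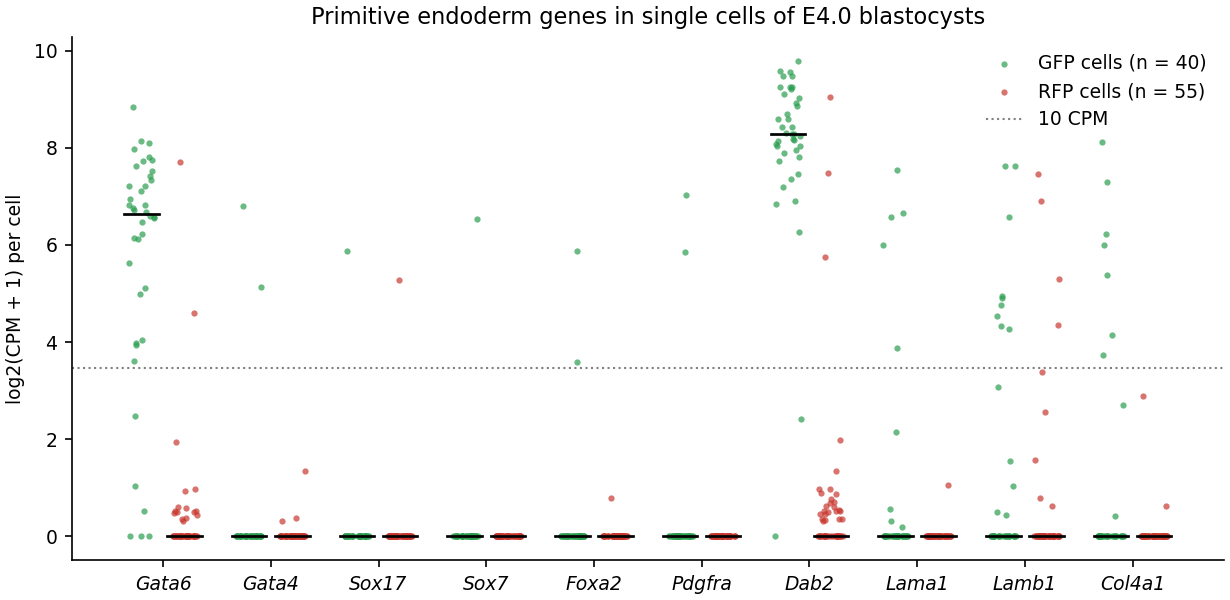
Each point is the level of a gene in 1 cell, as log2(CPM + 1), for 40 GFP cells (green) and 55 RFP cells (red), with a black bar at the median and a dotted line at 10 CPM. Gata6 and Dab2 have medians of 98.6 and 311 CPM in GFP cells, and the other 8 genes have a median of 0 in both groups.

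In the GFP cells the 10 genes fell into 2 kinds. Gata6 and Dab2 were broad, that is, present in 50% or more of the GFP cells, and these were 2 of 10 genes beside 25.3% of all genes. The other 8 were present in at most 25% of GFP cells with at least 75% of their summed level in the 3 highest cells, beside 36.4% of all genes. In RFP cells 9 of 10 genes were at least 2-fold lower than in GFP cells (log2 ratio of at most -1 after adding 1 CPM), beside 21.9% of all genes, and the median log2 ratio was -2.53, beside 0.08 over all genes. Sox7 and Pdgfra had no RFP read, and with a bound of 3 RFP reads and no added 1 CPM their log2 ratios were -7.83 and -9.14. With these 2 values the median was -3.97, but the other genes kept the added 1 CPM, so the 2 medians are on unlike scales. Sox17 was the exception, at a log2 ratio of -0.36. Without GFP cells 36 and 39, 4 of 10 genes (Gata6, Dab2, Lama1 and Col4a1) were at least 2-fold lower. Reads are amplified cDNA without molecular identifiers, so the intervals below cover counting error only. Those on shares of cells also take the cells as independent, which the labels do not show, and they are no comparison of the groups. Most recovered counts of these genes were even, as when both ends of a fragment are counted. Whether this was so was not tested, and the intervals on read counts would then be too narrow.

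Gata6 (ENSMUSG00000005836.10) encodes the transcription factor that opens the primitive endoderm programme. Its level in the 40 GFP cells ran from 0 to 454 CPM, with a median of 98.6 CPM, and 34 cells (85%, exact 95% interval 70.2 to 94.3%) had 10 CPM or more. The highest levels were in GFP cells 40 (454 CPM), 10 (282 CPM), 18 (275 CPM) and 36 (251 CPM). No read was found in GFP cells 3, 25 and 27, and GFP cells 13, 32 and 23 had 4.59, 1.05 and 0.442 CPM. The level was spread over the cells, with 22.6% of the summed CPM in the 3 highest. Of the 55 RFP cells, 39 had no Gata6 read, RFP cell 55 had 207 CPM, RFP cell 52 had 23.4 CPM and the other 14 with a read had 0.247 to 2.87 CPM. RFP cell 55 held 86.4% of the CPM summed over RFP cells. The reads summed over each group gave 112 CPM for GFP and 2.9 CPM for RFP, a 38.4-fold difference (95% counting interval 35.9 to 41.1) and a log2 ratio of -4.85. Without RFP cell 55 the log2 ratio was -6.13.

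Dab2 (ENSMUSG00000022150.16), the endocytic adaptor, was found in still more GFP cells. Its level ran from 0 to 888 CPM with a median of 311 CPM, and 38 cells (95%, exact 95% interval 83.1 to 99.4%) had 10 CPM or more. The highest levels were in GFP cells 12 (888 CPM), 36 (764 CPM) and 8 (753 CPM). GFP cell 18 had 4.36 CPM beside 275 CPM of Gata6, and GFP cell 27 had no read. Of the RFP cells, 29 had no Dab2 read, RFP cells 55, 38 and 44 had 524, 178 and 52.7 CPM, and the other 23 had 0.238 to 2.94 CPM. The groups overlapped through these 3 RFP cells and the 2 low GFP cells. The summed reads gave 371 CPM for GFP and 10.8 CPM for RFP, a 34.5-fold difference (33.3 to 35.7) and a log2 ratio of -4.98, or -5.96 without RFP cell 55.

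Dab2 has 2 listed starts in the RefSeq promoter table (GRCm38.p6), 1 at the upstream end of the gene and 1 far inside it, and their sequences are shown because the methylation results below differ between them. Both are on the plus strand of chromosome 15, each sequence is the 250 bases before the start, 5′ to 3′, and capitals mark CG pairs.
Dab2 upstream start, chr15:6299539-6299788: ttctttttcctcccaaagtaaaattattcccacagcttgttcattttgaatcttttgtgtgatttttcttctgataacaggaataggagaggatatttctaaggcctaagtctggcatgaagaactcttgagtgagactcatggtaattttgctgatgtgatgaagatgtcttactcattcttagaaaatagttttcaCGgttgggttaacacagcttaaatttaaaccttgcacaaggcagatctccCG
Dab2 inner start, chr15:6386498-6386747: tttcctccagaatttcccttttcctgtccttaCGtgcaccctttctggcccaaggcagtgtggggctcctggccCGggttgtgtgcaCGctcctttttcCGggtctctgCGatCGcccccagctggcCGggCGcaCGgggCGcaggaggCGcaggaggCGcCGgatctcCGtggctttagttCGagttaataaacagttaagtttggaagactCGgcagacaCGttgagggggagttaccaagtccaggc
The upstream window holds 2 CG pairs and the inner window 17. Promoter windows with 10 or more CG in the 300 bases around the start make up 43.5% of the 32851 in the table. The upstream start has 2 matches to GATA hexamers (the letters AGATAA, the letters TGATAA, the letters AGATAG or the letters TGATAG on either strand, counted over 300 bases, the last 50 of them after the start) and the inner start has 0. Such a match is present in 29.8% of all listed promoters, and it is a description of these letters, not a binding site. Which of the starts is used in these cells cannot be read from counts per gene.

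Gata6 and Dab2 were both present in 33 of 40 GFP cells (82.5%) and in 1 of 55 RFP cells (1.82%). GFP cells with Dab2 and without Gata6 numbered 5, and 1 had Gata6 without Dab2. These cells also carried trophectoderm genes: in the 33 cells, 6 to 12 of the 14 trophectoderm genes were present, with a median of 9.0. Across the 40 GFP cells, Dab2 and the mean log2(CPM + 1) of the trophectoderm genes had a Spearman rho of 0.55, and Gata6 had 0.34. Both genes also had a positive rho with the number of genes detected in a cell, 0.49 for Dab2 and 0.44 for Gata6. These are descriptions over cells that may share an embryo, and each pair of values shares a library.

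The other 4 transcription factors of the group were read in very few cells. Gata4 (ENSMUSG00000021944.15), the partner of Gata6, had 109.9 CPM in GFP cell 39, 34.2 CPM in GFP cell 36 and no read in the other 38 GFP cells. In RFP cells Gata4 had 1.55, 0.303 and 0.248 CPM in cells 2, 20 and 29 and no read in the rest. No RFP cell reached the 10 CPM level for this gene, and the summed levels of 4.3 and 0.0193 CPM differed 223-fold (95% counting interval 102 to 609.7).

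Sox17 (ENSMUSG00000025902.13), an HMG-box factor of endoderm, had 58 CPM in GFP cell 36 and no read in any other GFP cell. In the RFP group it had 37.6 CPM in RFP cell 13 and no read elsewhere. Each group thus held 1 cell with Sox17. The 1.61-fold difference of the summed levels (1.4 and 0.867 CPM) compares these 2 cells.

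Sox7 (ENSMUSG00000063060.6), a close relative of Sox17, had 91.5 CPM in GFP cell 36 and no read in the other 94 cells. Its summed level of 2.2 CPM in GFP cells was at least 228-fold higher than the floor in RFP cells (3 reads over the group, 0.00964 CPM). Foxa2 (ENSMUSG00000037025.11), a forkhead factor of endoderm, had 57.7 CPM in GFP cell 36, 11 CPM in GFP cell 39 and 0.717 CPM in RFP cell 44. Its summed levels of 1.74 and 0.00643 CPM, the latter from 2 reads, differed 270.1-fold (74.3 to 2238). With each cell thinned to 500000 reads, Foxa2 stayed at 10 CPM or more in 1 of the 2 GFP cells. All 4 of these factors were thus found in GFP cell 36, and Gata4 and Foxa2 also in GFP cell 39.

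The outermost Foxa2 start is shown for comparison with Dab2, as a stretch less methylated than the upstream Dab2 start in each of the 3 libraries. The sequence is the 250 bases before the start on the minus strand (GRCm38.p6), with capitals marking CG.
Foxa2 outermost start, chr2:148046970-148047219: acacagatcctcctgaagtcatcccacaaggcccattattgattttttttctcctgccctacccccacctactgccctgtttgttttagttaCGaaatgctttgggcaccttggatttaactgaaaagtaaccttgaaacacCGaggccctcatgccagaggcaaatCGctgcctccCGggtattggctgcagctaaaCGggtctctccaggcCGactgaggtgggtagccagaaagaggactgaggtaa
It holds 6 CG pairs, or 12 in the 300 bases around the start, and no GATA hexamer, and ACAAT, the core letters bound by SOX factors, was not found on either strand, beside 31% of listed promoters with a match.

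Pdgfra (ENSMUSG00000029231.15) encodes the receptor for platelet-derived growth factor and is the surface marker of primitive endoderm. It had 129 CPM in GFP cell 39, 56.9 CPM in GFP cell 36 and no read in the other 38 GFP cells or in any RFP cell. The summed level of 5.45 CPM in GFP cells was at least 565-fold higher than the floor in RFP cells. Pdgfra and Gata4 were found in the same 2 GFP cells and were both higher in GFP cell 39.

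The matrix genes reached further. Lama1 (ENSMUSG00000032796.8), the alpha chain of laminin-111, had 186 CPM in GFP cell 36, 99.9 CPM in cell 39, 94.5 CPM in cell 26, 62.5 CPM in cell 16 and 13.7 CPM in cell 31. Another 4 GFP cells had 0.139 to 3.41 CPM, and the remaining 31 had no read. In RFP cells it was read only in cell 44, at 1.08 CPM. The summed levels were 13.4 and 0.00964 CPM, the latter from 3 reads, a 1387-fold difference with a counting interval of 474 to 6728.

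Lamb1 (ENSMUSG00000002900.16), the beta chain of the same laminin, was the matrix gene with the most cells. GFP cells 31 and 36 had 196 CPM each, GFP cell 39 had 94.3 CPM, and GFP cells 37, 17, 8, 7, 10 and 21 had 18.3 to 30.1 CPM. It was also present in 4 RFP cells, at 175 CPM in cell 35, 119 CPM in cell 39, 38.1 CPM in cell 7 and 19.4 CPM in cell 10. The groups overlapped, and 26 GFP cells and 46 RFP cells had no read. The summed levels of 17.5 and 5.53 CPM differed 3.16-fold (2.98 to 3.34). None of the 4 RFP cells had another of the 10 genes at 10 CPM.

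Col4a1 (ENSMUSG00000031502.11), a chain of type IV collagen, was present in 7 GFP cells. It had 277 CPM in GFP cell 36, 156 CPM in cell 39, 73.6 CPM in cell 29, 62.7 CPM in cell 24, 40.5 CPM in cell 38, 16.6 CPM in cell 13 and 12.4 CPM in cell 15. RFP cells 44 and 49 had 6.46 and 0.539 CPM and the rest no read. The summed levels were 17.3 and 0.0643 CPM, a 269-fold difference (174 to 441). Outside GFP cells 36 and 39, no GFP cell had Col4a1 together with either laminin chain at 10 CPM, and GFP cell 31 alone had both laminin chains.

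The authors' deposited table gives its own fold changes for these genes, RFP against GFP by sign. In the authors' deposited table Gata6 has a log2 fold change of -6.75 (standard error 0.67, adjusted p 3.34e-22), Dab2 -5.79 (adjusted p 6.03e-17) and Col4a1 -10.16 (adjusted p 1.06e-05). The authors' deposited table gives Lamb1 -2.31 with an adjusted p of 0.301, and no adjusted p for the other 6 genes. Gata4 has 0.36 in the authors' deposited table (standard error 2.95, base mean 0.0873), while its summed reads above were higher in GFP cells. Foxa2 has -2.97 and Lama1 -3.46 in the authors' deposited table, each with a standard error of 2.94. For Sox17, Sox7 and Pdgfra the authors' deposited table has a base mean of 0 and a fold change of 0, although each has reads in at least 1 cell. A base mean of 0 is given for 1218 genes (8.75%), and all 1218 have reads in at least 1 cell. Sox17, Sox7 and Pdgfra were read only in GFP cells 36 and 39 and RFP cell 13, so those reads did not enter their base means. How they were left out was not tested. No source used here says which cells entered the authors' other values, and the authors' p-values take cells as replicates.

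**Figure D2:**
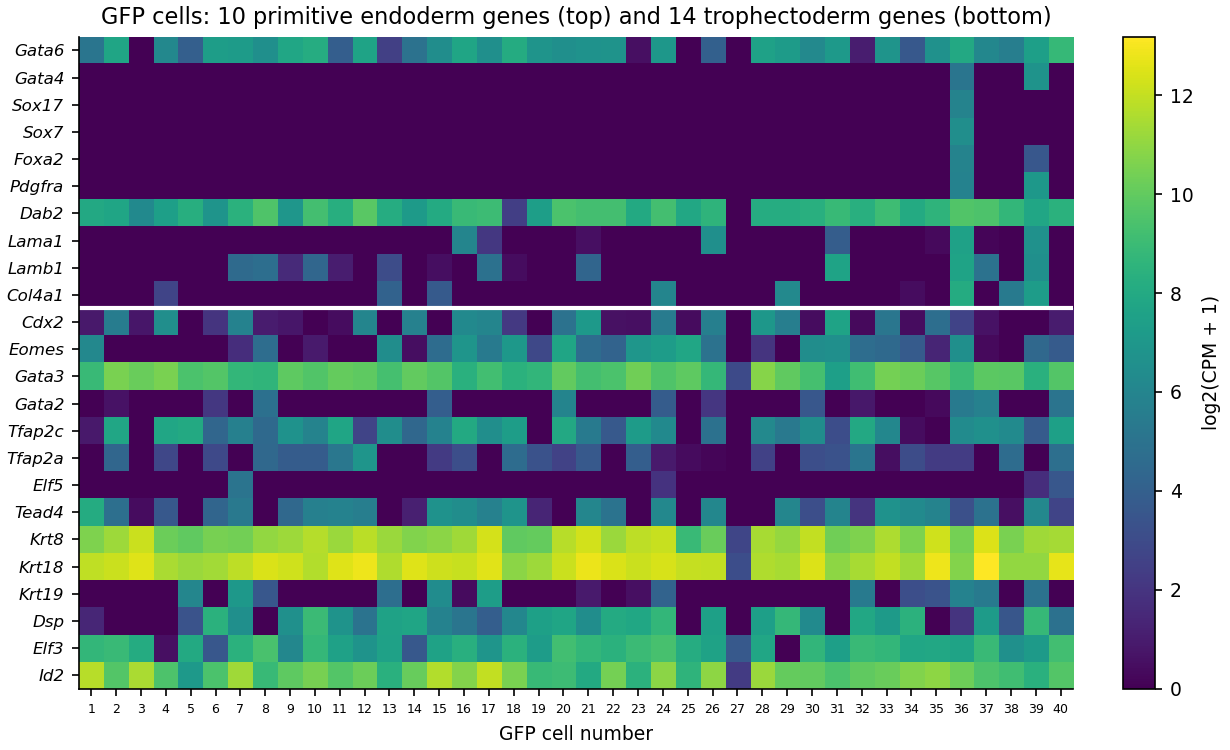
Level of 10 primitive endoderm genes (above the white line) and 14 trophectoderm genes (below it) in the 40 GFP cells, as log2(CPM + 1) by colour, with cells in label order. GFP cells 36 and 39 are the columns with Gata4, Foxa2 and Pdgfra, and they also have Gata3, Krt8 and Krt18.

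Counted by cell, 2 GFP cells had 5 or more of the 10 genes at 10 CPM: GFP cell 36 with 10 and GFP cell 39 with 8. Next came GFP cell 31 with 4 genes (Gata6, Dab2, Lama1 and Lamb1). Of the others, 12 had 3 genes, 19 had 2, 5 had 1 and GFP cell 27 had none. Of the 55 RFP cells, 46 had none, 8 had 1 and RFP cell 55 had 2. GFP cells 36 and 39 were picked out here by the members themselves, so their values below are a description.

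GFP cell 36 and GFP cell 39 also expressed trophectoderm genes. In GFP cell 36, 9 of 14 trophectoderm genes were at 10 CPM or more, and in GFP cell 39 10 of 14, beside a median of 9 over GFP cells. The mean log2(CPM + 1) of the list was 5.89 and 5.44, beside a median of 5.48 and a range of 1.06 to 7.07. Their trophectoderm level was thus inside the range of the other GFP cells, while their mean over the 10 primitive endoderm genes, 7.01 and 5.32, lay above the next highest, 2.75 in GFP cell 31.

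The trophectoderm genes were not at the same level in the 2 cells. Gata3, a trophectoderm transcription factor, had 505 CPM in GFP cell 36 and 329.5 CPM in GFP cell 39, beside a median of 787 CPM. The keratin Krt8 had 1359.7 and 2519 CPM (median 2354 CPM), and its partner Krt18 had 1696 and 2133 CPM (median 4145 CPM). Cdx2, which is needed to maintain trophectoderm, had 5.21 CPM in cell 36 and no read in cell 39, beside a median of 1.01 CPM and 16 GFP cells at 10 CPM. Eomes had 92.6 and 20.9 CPM (median 15.2 CPM), and the desmosome gene Dsp had 2.98 and 452 CPM (median 90.5 CPM). Of the 12 epiblast genes, 1 was at 10 CPM or more in cell 36 (Esrrb, 17.9 CPM) and 3 in cell 39 (Pou5f1, 62.1 CPM, Etv5, 57.3 CPM, and Utf1, 24.6 CPM), beside a median of 1 over GFP cells. Nanog had 0 and 0.565 CPM and Sox2 no read in either cell.

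Both cells had many genes detected, 7255 and 7189 beside a median of 5209 and a highest value of 7645 in GFP cell 24. With all cells thinned to 500000 reads the values were 6630 and 6643, beside a median of 4647. Over the 40 GFP cells, the mean of the 10 genes had a Spearman rho of 0.60 with genes detected and 0.43 with the trophectoderm mean. The part of genes detected in the number of primitive endoderm genes was not tested. GFP cell 24, with the most genes detected and the highest trophectoderm mean (7.07), had 3 of the 10 genes.

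**Figure D3:**
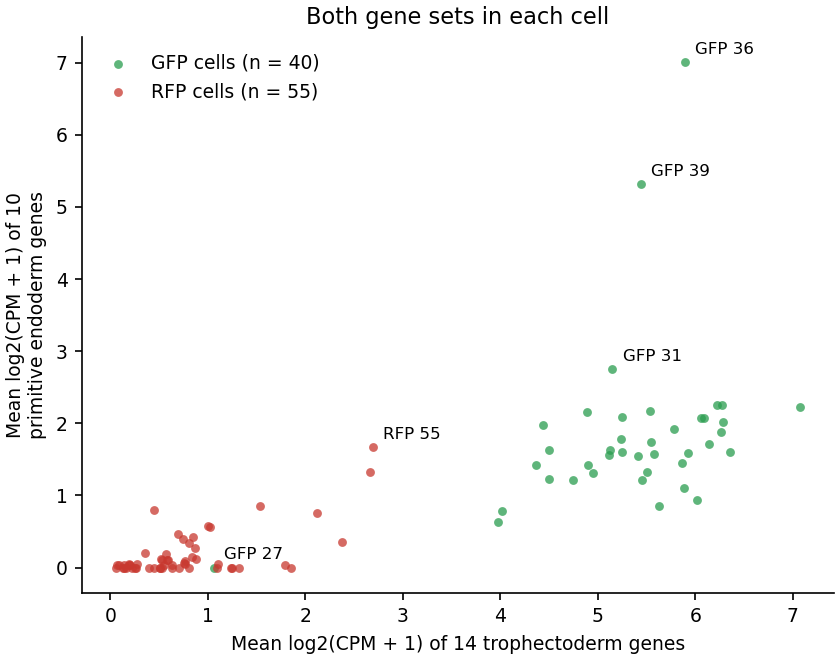
Each point is 1 cell, with the mean log2(CPM + 1) of 14 trophectoderm genes on the horizontal axis and that of 10 primitive endoderm genes on the vertical axis, for 40 GFP cells (green) and 55 RFP cells (red). GFP cells 36 and 39 lie at 7.01 and 5.32 on the vertical axis with trophectoderm means of 5.89 and 5.44, inside the range of the GFP cells.

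The other endoderm genes looked up were 34 genes on 5 lists, of which 26 were measured and 25 had a read in a GFP cell. The highest GFP value was in GFP cell 36 or 39 for 9 of these 25 (36%), beside 6.29% of all genes with a read in a GFP cell. Each of the 2 cells had 17 of the 26 genes at 10 CPM or more, where 40.8% of all genes reached that level in GFP cell 36 and 41.4% in GFP cell 39. The median over GFP cells was 8.0 of the 26 genes, and no other GFP cell had more than 13. Over both groups, 14 of the 26 were at least 2-fold lower in RFP cells and 5 at least 2-fold higher, beside 21.9% and 25% of all genes.

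The other basement membrane genes were mostly shared with more cells. Sparc, a collagen-binding matrix protein, had 1019.6 CPM in GFP cell 36 and 1062 CPM in GFP cell 39, beside at most 358 CPM in the other GFP cells. Lamc1, the gamma chain that joins Lama1 and Lamb1 in laminin-111, had 190.5 and 227 CPM but was at 10 CPM or more in 20 GFP cells. Col4a2, the partner chain of Col4a1, had 8.93 and 21.2 CPM and was present in 4 GFP cells. Nid1 had 49.1 and 14.4 CPM, beside a highest value of 368 CPM in GFP cell 1. Nid2 had 2.79 and 0 CPM and Hspg2 4.09 and 1.41 CPM. In this list 4 of 6 genes were at least 2-fold lower in RFP cells, beside 21.9% of all genes, with Sparc the lowest (log2 ratio -3.19). Nid2 was at least 2-fold higher (1.35), as were 25% of all genes.

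The enzymes that fold and hydroxylate collagen gave 2 of 6 genes at least 2-fold lower in RFP cells, beside 21.9% of all genes. P4ha2 had the lowest log2 ratio of this list (-3.59). Serpinh1, the collagen chaperone, had 50.6 CPM in GFP cell 36 and 17.5 CPM in GFP cell 39 and at most 0.256 CPM in the other GFP cells. The prolyl hydroxylase subunit P4ha1 had 227 and 128 CPM, beside at most 121 CPM elsewhere in the group. These were among the genes with their highest GFP values in cell 36.

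Genes of later endoderm were found unevenly. Cubn, the endocytic receptor cubilin of visceral endoderm, had 35 CPM in GFP cell 36, 115 CPM in GFP cell 39 and no read in any other cell of either group. Its partner Amn had 37.6 CPM in GFP cell 36 and no read in GFP cell 39, and 2 other GFP cells had it at 10 CPM or more. Srgn, a proteoglycan of the parietal endoderm list, had 314 and 81.4 CPM. The receptor Lrp2, in contrast, was present in 39 GFP cells with a median of 406 CPM, and GFP cells 36 and 39 had 315 and 355 CPM. The parietal genes Plat and Thbd were highest in GFP cells 12 (227 CPM) and 19 (176 CPM). Thbd, Snai1 and Fst of this list had no read in GFP cell 36 or GFP cell 39. Plat had 0 and 39.3 CPM in these cells and Pth1r 5.21 and 0 CPM.

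Apoe had the opposite direction to most endoderm genes, at 162 CPM for GFP and 2474 CPM for RFP (log2 ratio 3.92). In its list of visceral endoderm genes, Apoa1 had the lowest log2 ratio (-5.74), at 65.5 CPM for GFP and 0.244 CPM for RFP. Among the FGF genes, 6 of 8 were at least 2-fold higher in RFP cells and 1 lower, beside 25% and 21.9% of all genes. The lower one, Fgfr2, a receptor of primitive endoderm and trophectoderm, had 82.8 CPM for GFP and 2.79 CPM for RFP (log2 ratio -4.47). Fgf4, the ligand, had 3.57 and 516 CPM (log2 ratio 6.82). The other 5 higher genes are known targets of the signal, with log2 ratios of 1.83 for Spry2, 1.85 for Spry4, 1.99 for Etv4, 4.78 for Dusp6 and 6.07 for Etv5. GFP cells 36 and 39 had 101 and 66.4 CPM of Fgfr2 and 0.744 and 0 CPM of Fgf4. Fgfr1 had no read in GFP cell 36 and 6.21 CPM in GFP cell 39.

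RFP cell 55 was the RFP cell with both Gata6 and Dab2. Gata4, Sox17, Sox7, Foxa2, Pdgfra, Lama1, Lamb1 and Col4a1 had no read in it, and Sparc had 209 CPM. It also had trophectoderm genes, with 1636 CPM of Krt8, 1524 CPM of Krt18, 414 CPM of Gata3 and 114 CPM of Id2, while the other 10 of 14 were under 1 CPM. The epiblast genes Tdgf1, Etv5 and Gdf3 had 1874, 899.7 and 409 CPM in the same cell. RFP cells 38 and 44, the other 2 with Dab2, each had 4 of 14 trophectoderm genes at 10 CPM or more, beside a median of 1 over RFP cells. RFP cell 13, with Sox17, had 2 of 14, and 11 of 12 epiblast genes.

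Around the gene starts, methylation was given as the share of methylated calls summed over the 200 bp windows whose centre lay within 2000 bp of the start. Only windows with a value in all 3 libraries were used, and a window had a median of 27 to 29 calls. RefSeq starts were at hand for Foxa2, Pdgfra, Dab2, Lamb1 and Col4a1. For Gata6, Gata4, Sox17, Sox7 and Lama1, the strand was not at hand, and the end of the gene with more CpGs within 500 bp was used. Over 20828 genes measured the same way, the methylation of the median start was 45.6, 33.6 and 17.4% in MEF, the Gjb2-35delG ESCs and the Actin-RFP ESCs.

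**Figure D4:**
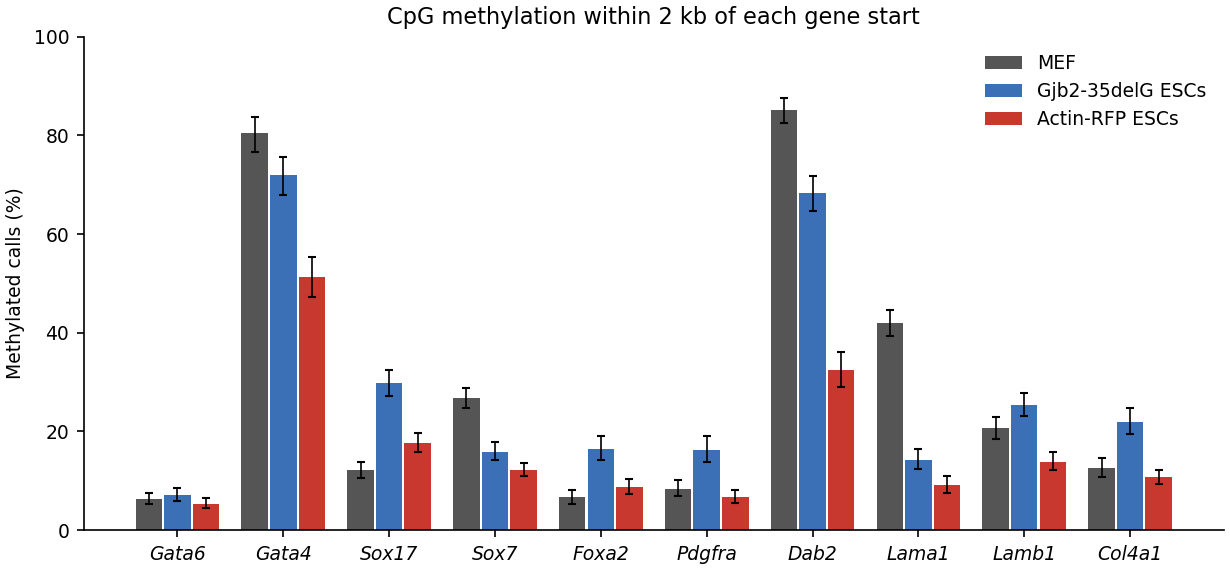
Bars give the percent of methylated calls within 2 kb of each start in MEF (grey), Gjb2-35delG ESCs (blue) and Actin-RFP ESCs (red), 1 library each, with 95% Wilson intervals that cover counting error only. Gata6 is under 10% in the 3 libraries, and Gata4 and Dab2 are the highest at the ends used here. The inner Dab2 start, not plotted, has 19.9, 43.3 and 22.1%. The strand of Gata4 was not at hand, so its bars may not be at its start. Its other end, not plotted, has 40.2, 71.2 and 39.5%.

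Within 2 kb, Gata6, Foxa2 and Pdgfra were under 20% in all 3 libraries. In MEF 5 of 10 were under 20%, beside 11.9% of all genes. The same count was 5 of 10 in Gjb2-35delG ESCs, beside 29.9%, and 8 of 10 in Actin-RFP ESCs, beside 55.8%. Gata6 (chromosome 18, 11052510 to 11085636) had 6.34% of 1610 calls in MEF, 7.17% of 1422 calls in the Gjb2-35delG line and 5.39% of 1911 calls in the Actin-RFP line. The 95% intervals of the 3 libraries overlapped at Gata6. No Gata6 window within 2000 bp was above 19.4% in any library.

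At the ends used here, no member was at least 30 points lower in Gjb2-35delG ESCs than in MEF (0 of 10, beside 5.09% of all genes). None was higher by as much at these ends (beside 0.202%). Gata4, whose strand was not at hand, was 31 points higher at its other end (40.2% in MEF and 71.2%). In Actin-RFP ESCs 2 of 10 were lower by 30 points (beside 44.1%) and none higher (beside 0%). These 2 were Dab2 and Lama1. Dab2 (chromosome 15, 6299788 to 6440715) had 85.2% of 759 calls in MEF, 68.3% of 628 calls in the Gjb2-35delG line and 32.5% of 695 calls in the Actin-RFP line at its upstream start. At the inner start, whose CG-rich sequence is printed above, the values were 19.9, 43.3 and 22.1%, and within 500 bp they were 4.23, 15.4 and 4.62%. Dab2 was thus heavily methylated at 1 listed start and little at the other in MEF, and the order of the libraries also differed between them.

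Lama1 (chromosome 17, 67697127 to 67822645) had 41.9% of 1285 calls in MEF, 14.2% of 1076 calls in the Gjb2-35delG line and 9.1% of 1198 calls in the Actin-RFP line. With distances negative outside the gene, the windows from -1827 to -427 bp were at 57.8 to 92.6% in MEF, 6.82 to 40.4% in the Gjb2-35delG line and 3.16 to 27.1% in the Actin-RFP line. From 173 to 1573 bp inside the gene, no library was above 13.2%, and at 1773 bp the values were 36, 5.26 and 12.8%.

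Sox17 (chromosome 1, 4490928 to 4497426) was lowest in MEF, with 12.1% of 1450 calls in MEF, 29.8% of 1124 calls in the Gjb2-35delG line and 17.6% of 1573 calls in the Actin-RFP line. Within 500 bp of the start the 3 libraries were at 7.16, 10.5 and 8.73%. Both ESC libraries were above MEF outside the gene, where windows from -1874 to -674 bp had 18.2 to 43.8% in MEF, 63.1 to 86% in the Gjb2-35delG line and 29.9 to 62.5% in the Actin-RFP line. They were also above MEF inside the gene at 1326 bp (12.1, 23.1 and 18.1%), 1526 bp (7.07, 27 and 18.9%) and 1726 bp (12, 59.5 and 22.9%).

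**Figure D5:**
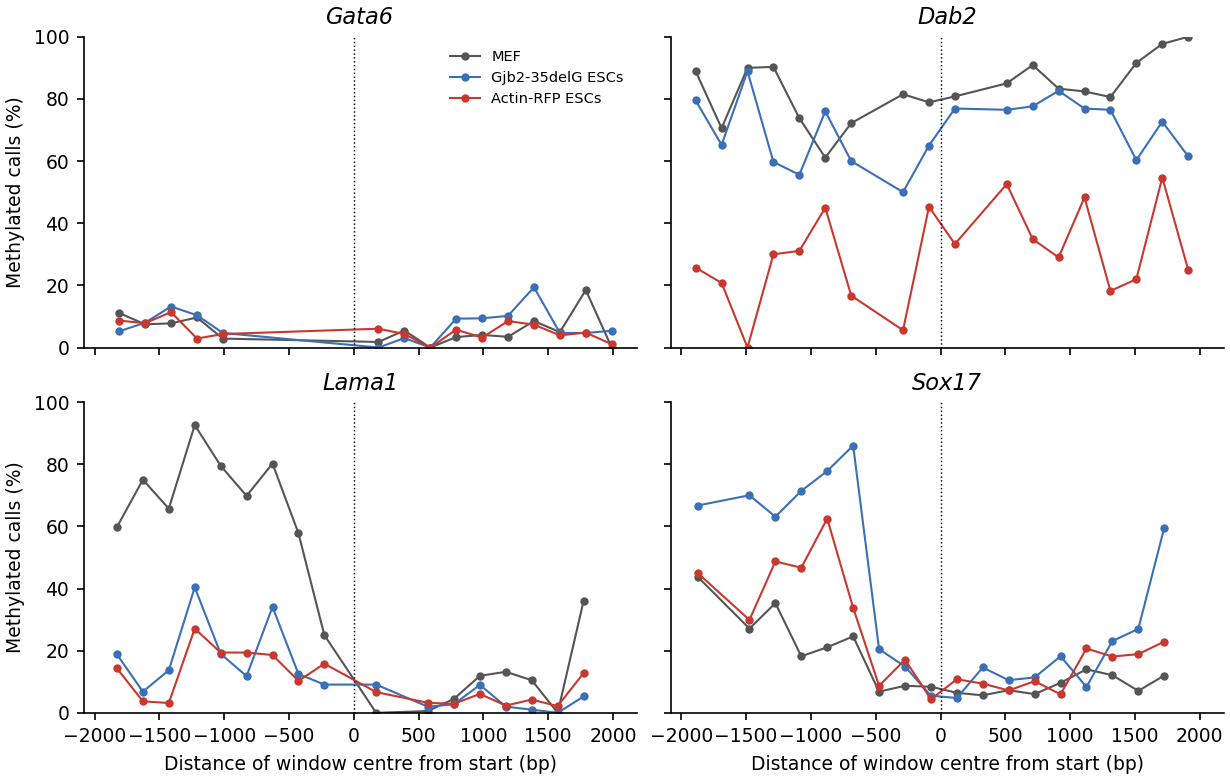
Percent of methylated calls in each 200 bp window against the distance of its centre from the start (dotted line, positive into the gene) for Gata6, Dab2 at its upstream start, Lama1 and Sox17, in MEF (grey), Gjb2-35delG ESCs (blue) and Actin-RFP ESCs (red). Lama1 has 57.8 to 92.6% in MEF from -1827 to -427 bp, and Sox17 is highest in Gjb2-35delG ESCs from -1874 to -674 bp.

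Foxa2 (chromosome 2, 148042877 to 148046969) had 6.64, 16.5 and 8.71% in MEF, Gjb2-35delG ESCs and Actin-RFP ESCs. The 2 windows that overlap the 250 bases of Foxa2 printed above had 7.55% of 159 calls, 15.2% of 138 and 5.29% of 208. The window from 148047001 to 148047200, which covers most of these bases, had 7.23, 28.3 and 5.95%. Pdgfra (chromosome 5, 75151322 to 75198206) had 8.36, 16.3 and 6.79%, and within 500 bp of its start 8.2, 29.7 and 8.21%. Col4a1 (chromosome 8, 11198423 to 11312889) had 12.7, 22 and 10.7%. Lamb1 (chromosome 12, 31265146 to 31329644) had 20.7, 25.4 and 13.9%. These 4 genes with Sox17 and Gata6 were the 6 of 10 higher in Gjb2-35delG ESCs than in MEF at the ends used. This counts any amount, beside 15.8% of all genes. Gata4 was lower at the end used and higher at its other end. Within 5 kb 2 of 10 were higher. In Actin-RFP ESCs the 2 above MEF were Sox17 and Foxa2, beside 1.56% of all genes. Within 500 bp of the start 6 of 10 were above MEF in Actin-RFP ESCs, and within 5 kb 1 was. Some of the differences within 500 bp were small, such as 0.0122 points for Pdgfra and 0.186 points for Col4a1. The shares of all genes were computed within 2 kb only, so the counts within 500 bp and 5 kb have no such share beside them.

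Sox7 (chromosome 14, 63943706 to 63950732) had 26.8% of 1720 calls in MEF, 15.9% of 1623 calls in the Gjb2-35delG line and 12.2% of 2233 calls in the Actin-RFP line. Its windows from -206 to 394 bp were at most 10.1% in any library, and those from 794 bp inward were at 41.3 to 88.9%. Gata4 (chromosome 14, 63198914 to 63271712) depended on which end was read. The end used here by the CpG rule had 80.4, 71.9 and 51.3%, and the other end had 40.2, 71.2 and 39.5%. Which of these ends is the start was not settled, so the values of the end used may not be those of the start. The 31 Gata4 windows with 10 or more CpGs inside the gene had 27.2, 40.6 and 23.7%, so neither end gave the level of its CpG-dense windows.

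The expression and the methylation libraries came from different cells, so no relation between them was computed.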

How the data were processed

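Single-cell RNA was measured in 40 GFP and 55 RFP cells and CpG methylation in 3 cell cultures, 98 of the 131 samples listed; the others were not analysed here. The deposited expression table holds normalized signal values per gene and cell. In each cell the values were whole multiples of 1 step (100.0% within 0.01 of a whole number), so reads were recovered by dividing by that step, and CPM was taken over the cell's total. The same deposited table holds the authors' log2 fold changes, test score and p-values, per the file headers. Tools in the submitters' processing notes are DESeq2 1.30.0, deepTools 3.3.1, StringTie 2.0, STAR 2.7.3a, featureCounts 2.0.0, and fastp 0.20.0, listed without their roles, and the genome build is mm10. The bisulfite files give methylated and unmethylated call counts and a methylation fraction per 200 bp window, as deposited by the authors. The libraries were made with the Accel-NGS Methyl-Seq kit, per the labels, and no source used here names their aligner or methylation caller. No count test was run on the recovered reads because each group is 1 sample.

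The genes and lists were chosen with earlier results of these data known. All 10 genes are named with their values. List genes are named in part only: some with the highest or lowest ratio of a list, and some that bear on a cell named for its members. For Gata6, for Dab2 and for the mean of the other 8, the 5 genes with the highest Spearman rho over GFP cells are named, among genes at 10 CPM or more in at least 5 GFP cells. Log2 ratios used CPM of summed reads plus 1 CPM. Intervals are exact Poisson, Clopper-Pearson or Wilson at 95%. The ratio and breadth calculations were tested on simulated data. Thinning used 500000 reads a cell. Sequences and starts came from RefSeq (GRCm38.p6, the build that mm10 names): 5 of 10 genes had an entry in the promoter table and all 10 in the gene table. Analyses used Python 3.11.15, numpy 2.4.6, scipy 1.17.1, pandas 2.3.3 and matplotlib 3.10.9.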

Additional observations from a re-analysis of the deposited data

How the results depend on the processing

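Gata6 and Dab2 were the 2 broad genes, and GFP cells 36 and 39 the 2 cells with 5 or more genes, at 1 or 50 CPM in place of 10, after thinning to 500000 reads and without cells over 10% mitochondrially encoded reads. Without GFP cells 36 and 39, genes lower in RFP cells numbered 4 of 10, genes carried by few cells 2 (Lama1 and Col4a1), cells with 5 or more genes 0, and the log2 ratios of Gata4, Foxa2, Sox17 and Lamb1 were 0.03, 0.01, 0.90 and -0.80. Genes lower in RFP cells numbered 3 by means of log2(CPM + 1) over cells and 4 with 10 CPM added. Cells with 3 or more genes numbered 15. Genes at least 30 points lower in Gjb2-35delG ESCs numbered 1 within 500 bp, and 1 when 20 points were asked. For Actin-RFP ESCs the count was 7 at the other gene end and, at the listed start with the most CpGs (chosen after seeing the data), 1, where Dab2 differed from MEF by 2.18 points. The causes were not tested. Of the remaining alternative values, 33 that answer a comparison stayed within 1.5-fold. Of those of single genes, 222 were classed as unchanged and 205 as moved. The 1.5-fold limit does not hold for single genes, and some of the 205 moved by less. The Gata4 log2 ratio, for example, was -2.15 by the mean CPM over cells and -2.38 by summed reads, and it was classed as moved.

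No paired analysis was possible because cell numbers only name cells and each group is 1 sample. Depth limits low values: 10 CPM stands for about 5 reads in the shallowest RFP cell.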

Other observations

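GFP cells 36 and 39 shared 5 genes that were at 50 CPM or more in both and under 1 CPM in the other 38 GFP cells, a choice made after seeing the values. Besides Pdgfra these were Aqp8, a water and hydrogen peroxide channel (222 and 898 CPM), Rcn1 (142 and 54.5 CPM) and Ckap4 (106 and 72.3 CPM), both of the endoplasmic reticulum, and Asph, which hydroxylates aspartate in secreted and membrane proteins (86.7 and 109 CPM). RFP cells had these as well: Rcn1 was present in 16, Ckap4 in 8, Asph in 3 and Aqp8 in 1, and Pdgfra in none.

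Over the 40 GFP cells and 7559 genes, the genes most like Gata6 by Spearman rho were Timm50 (0.74), Slc25a4 (0.66), Urm1 (0.63), Kctd9 (0.62) and Mrpl44 (0.61). Timm50 had 76.9 CPM for GFP and 173 CPM for RFP, and Slc25a4 547 and 84 CPM. The genes most like Dab2 were Folr1 (0.66), Isca2 (0.64), Asf1b (0.63), Sel1l (0.63) and Dpm2 (0.62). Folr1, the folate receptor, had 322 CPM for GFP and 46 CPM for RFP. The genes most like the mean of the other 8 were Ptp4a3 (0.64), Slc35a1 (0.57), Trp53 (0.56), Ythdf1 (0.55) and Rbbp8 (0.55). The 2 values of a pair come from the same library and share its depth and gene detection, and the highest of 7559 values are shown.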
